A study of Mus musculus with 6 samples.

Results

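The genes described here are 10 components of the transforming growth factor beta (TGF-beta) pathway: the ligand genes Tgfb1, Tgfb2 and Tgfb3, the receptor genes Tgfbr1, Tgfbr2 and Tgfbr3, the signal transducer genes Smad2 and Smad3, and the feedback inhibitor genes Smad7 and Skil. They were picked by name from a table of 53460 genes. Each had 1 entry, and all 10 passed the filter on low values that left 12720 genes for testing. RNA was measured in cardiac mesenchymal cells, stromal cells grown from the heart, of C57BL6/J mice that the labels call male. The slowly adherent fraction was used, that is, the cells that attach late to culture plastic. The sham group has 3 libraries from hearts 28 days after thoracotomy without infarction. The infarct group has 3 libraries from hearts 28 days after 60 min of ischemia and reperfusion. The labels give no age, and do not state if a group's libraries are separate animals or cultures. The p-values therefore reflect only how these libraries vary, which may be technical.

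TGF-beta is made as a latent complex that is stored in the matrix and released by integrins, proteases and thrombospondin. The active ligand joins the type II receptor (Tgfbr2) to the type I receptor (Tgfbr1), which phosphorylates Smad2 and Smad3. These bind Smad4, enter the nucleus and switch on target genes. Smad7 blocks the type I receptor, and Skil, which encodes the corepressor SnoN, holds back the Smads on DNA. In the infarcted heart the pathway is known for turning fibroblasts into contractile, matrix-producing myofibroblasts.

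Values are FPKM, fragments scaled to the length of the transcript and the size of the library, and lists of 3 values follow the library numbers 1 to 3. The steps between the lowest values implied 20.3 to 28.2 M fragments per library. At that depth the smallest implied fragment count among the 60 values of the 10 genes was about 757, for Tgfb1 in infarct library 2. That is a counting error of 3.63%, counting error only. Stromal markers were abundant in every library, with a summed level of 4318 to 5580 FPKM over 10 genes, led by Vim, Col3a1 and Col1a1. Dcn and Thy1 of that list were singled out after their values were seen, since both were lower in the infarct libraries without overlap, at 26.7 ± 8.01 and 289.8 ± 16.3 FPKM in sham and 16.8 ± 2.64 and 224.8 ± 35.3 in infarct (adjusted p = 1.00 each by limma). Of 10 macrophage markers, Lyz2 was at 6.99 to 28.0, Cd14 at 0.576 to 4.31 and Cd68 at 0.487 to 0.730 FPKM, and Adgre1 and C1qa were listed at 0 in all 6 libraries. Of 10 cardiomyocyte markers, Tnnt2 was at 14.3 to 53.2, Tnni3 at 0.406 to 0.999 and Myl2 at 0 to 0.195 FPKM, and Myh6 and Nppa were listed at 0. The 15 endothelial markers summed to 137.6, 433.7 and 285.7 FPKM in sham libraries 1, 2 and 3 and to 44.0, 20.7 and 32.0 in infarct libraries 1, 2 and 3, led by Emcn, Cdh5 and Egfl7. All 13 tested were lower in infarct, 12 of them without overlap between groups, beside 7.81% of all genes tested, and Mmrn2, singled out for this, passed after adjustment (adjusted p = 0.0329 by limma). The 10 proliferation markers, led by Cdk1, Top2a and Mki67, summed to 337.5 FPKM in sham library 2 and 374.8 in infarct library 1, against 124.1 to 197.7 in the other 4. The sex-linked genes went against the labels. Xist, the RNA of the inactive X chromosome, was present in all 6 libraries, at 102.3 to 110.9 FPKM in sham and 63.1 to 89.9 in infarct. The Y-linked gene Eif2s3y was at 0.130 to 0.225 FPKM in the sham libraries and at 10.6, 0.804 and 2.27 in infarct libraries 1 to 3. Both genes thus differed between the groups without overlap. This difference cannot be told apart from the infarct in the comparisons given here, and its part in the changes was not tested. The groups are named by their labels throughout.

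The 10 TGF-beta genes were transcribed at middle to high levels in both groups, and 0 of them passed the test between groups. Changes were tested with limma on log2(FPKM + 1), infarct minus sham, with Benjamini-Hochberg adjustment over all 12720 genes. The adjusted p was 1.00 for each of the 10, and 0 of them had an unadjusted p under 0.05. With 1 library left out, the unadjusted limma p was 0.0235 for Tgfb1 without sham library 1 and 0.0427 for Tgfbr2 without sham library 2, with adjusted p of 1.00 and 0.977. Over all genes tested, 0.0236% passed after adjustment and 3.58% had an unadjusted p under 0.05. In the authors' deposited table, whose q-values come from the authors' own test, 1.66% of the genes with status OK had a q under 0.05, and the q-values of the 10 ran from 0.687 for Tgfb1 to 1.00 for Smad7, Skil, Tgfb3, Smad3 and Smad2. Changes were positive for 6 genes and negative for 4, with a median of 0.09, beside 0.02 over all genes tested. The 95% intervals of 9 of the 10 lay within -1 and 1 on that scale, the exception being Tgfb2. The same held for 11749 of the 12720 genes tested, so it does not set the 10 apart. In bulk RNA, fewer cells that express a gene and less RNA per cell cannot be told apart.

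**Figure D1:**
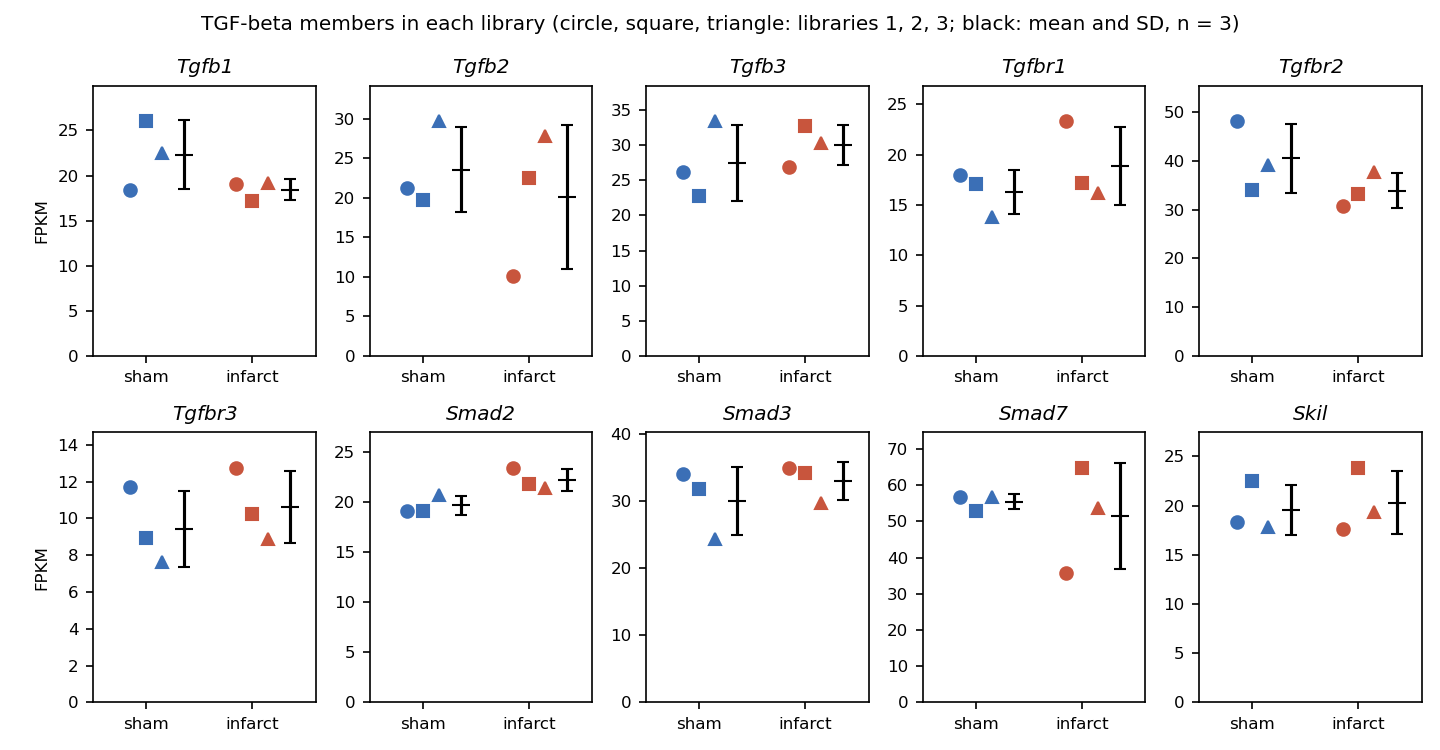
FPKM of the 10 TGF-beta genes in 3 sham (blue) and 3 infarct (red) libraries, with circles, squares and triangles for libraries 1, 2 and 3 and the mean and SD of each group in black. The groups overlap in 9 of the 10 panels. Smad2 is the exception, and Tgfb2 and Smad7 each have 1 low value in infarct library 1, at 10.05 and 35.8 FPKM.

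The ligand genes were all expressed. Tgfb1 (chromosome 7, 25687002 to 25705077, GRCm38, plus strand), the best known profibrotic ligand, stood at 18.4, 26.0 and 22.5 FPKM in the sham libraries and at 19.0, 17.1 and 19.2 in infarct libraries 1 to 3. All 3 infarct values lay below the sham mean, but sham library 1 lay below 2 of them, so the groups overlapped. The means were 22.3 ± 3.81 and 18.4 ± 1.14 FPKM (SD, n = 3 each), a log2 change of -0.25 with a 95% interval of -0.57 to 0.07. Within the sham group Tgfb1 was lowest in library 1 and highest in library 2, the same order as the summed endothelial markers. In the infarct group both were lowest in library 2. The endothelial sum was highest there in library 1, and Tgfb1 in library 3, by 19.2 to 19.0 FPKM. The part of the endothelial markers in the result was not tested. Without sham library 2 the log2 change was -0.14, and without sham library 1 it was -0.38.

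Tgfb2 (chromosome 1, 186622792 to 186705989, minus strand), a ligand that needs the co-receptor betaglycan to bind the type II receptor well, was the most variable of the 10. It stood at 21.3, 19.7 and 29.7 FPKM in the sham libraries and at 10.05, 22.5 and 27.8 in infarct libraries 1 to 3. Infarct library 1 held 51.0% of the level of the next lowest library, and the other 2 infarct values lay inside the sham range. The change was -0.31, with an interval of -1.15 to 0.54. Without infarct library 1 it turned to 0.11. The spread of Tgfb2 within groups, an SD of 0.56 on the log2 scale, was larger than that of 95.4% of the genes tested.

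Tgfb3 (chromosome 12, 86056745 to 86079041, minus strand), the third ligand, stood at 26.2, 22.8 and 33.4 FPKM across the sham libraries and 27.0, 32.7 and 30.4 in the infarct libraries. Its highest and lowest values were both sham libraries. The change was 0.14 (95% interval -0.23 to 0.50), and ran from 0.016 without sham library 2 to 0.28 without sham library 3. The table gives Tgfb3 a merged locus that also takes in Ttll5 on the other strand, so the reads of the 2 genes may not have been told apart. The submitters sequenced in a directional manner, but no source used here says whether counting was by strand.

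Promoter sequences from RefSeq (GRCm38.p6) were at hand for 5 of the 10 genes, Tgfb1, Tgfb2, Tgfbr1, Tgfbr2 and Smad3. Those of Tgfb1 and Tgfb2 are shown because these 2 ligand genes lay at about the same level and differed most in how much they varied between libraries. Each runs from 250 bases before the start of the gene to 50 after it, 5′ to 3′ on the strand of the gene. Capitals mark matches, on either strand, to the GC box GGGCGG, the TATA box TATAAA and the CAGAC element that Smad3 and Smad4 can bind.
Tgfb1: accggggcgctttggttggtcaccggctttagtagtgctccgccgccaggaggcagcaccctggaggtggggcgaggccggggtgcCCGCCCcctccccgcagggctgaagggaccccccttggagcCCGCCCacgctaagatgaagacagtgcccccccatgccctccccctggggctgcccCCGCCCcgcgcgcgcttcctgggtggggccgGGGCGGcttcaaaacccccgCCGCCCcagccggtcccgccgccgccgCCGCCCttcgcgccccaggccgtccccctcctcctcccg
Tgfb2: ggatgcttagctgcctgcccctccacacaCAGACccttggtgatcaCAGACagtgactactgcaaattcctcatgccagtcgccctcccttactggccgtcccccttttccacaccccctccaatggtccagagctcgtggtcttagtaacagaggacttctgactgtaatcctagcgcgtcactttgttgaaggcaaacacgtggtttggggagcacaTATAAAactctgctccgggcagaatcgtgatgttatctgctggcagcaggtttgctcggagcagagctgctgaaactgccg
The first is chr7:25686752-25687051 and the second chr1:186705940-186706239. The Tgfb1 promoter held 6 GC boxes and no TATA box, with a GC content of 77.0%. The Tgfb2 promoter held 1 TATA box, 2 CAGAC elements and no GC box, with a GC content of 54.3%, and 52.7% is the median over 32851 promoters of this length. No marked match overlapped another in either sequence. Of all these promoters 35.7% held a GC box, 13.6% a TATA box and 49.6% a CAGAC element. The palindromic Smad box GTCTAGAC was in neither ligand promoter and in 0.213% of all promoters, and the AP-1 element TGACTCA was in neither and in 5.20% of all. Matches of letters are a description and show no binding.

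No single ligand gene held more than 48.1% of their summed level in any library. The sum of the 3 was 65.9, 68.5 and 85.6 FPKM in the sham and 56.0, 72.3 and 77.4 in the infarct libraries, lowest in infarct library 1. Tgfb3 held the largest share in 5 of the 6 libraries, at 39.7%, 33.3% and 39.1% in sham and 48.1%, 45.2% and 39.3% in the infarct libraries. All 3 infarct shares of Tgfb3 lay above the sham mean of 37.4%, yet the lowest infarct share lay below the highest sham share. Tgfb1 was the most abundant ligand in sham library 2 alone, at 38.0%. The share of Tgfb2 was 28.7% to 34.7% in sham libraries and 17.9%, 31.1% and 35.97% in infarct libraries 1 to 3. Of the 8 shares and ratios tested with an exact permutation test over libraries, two-sided, the lowest p was 0.20 and the lowest adjusted p 0.80. The smallest p that 3 against 3 libraries allow is 0.10, so this design cannot pass the threshold.

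**Figure D2:**
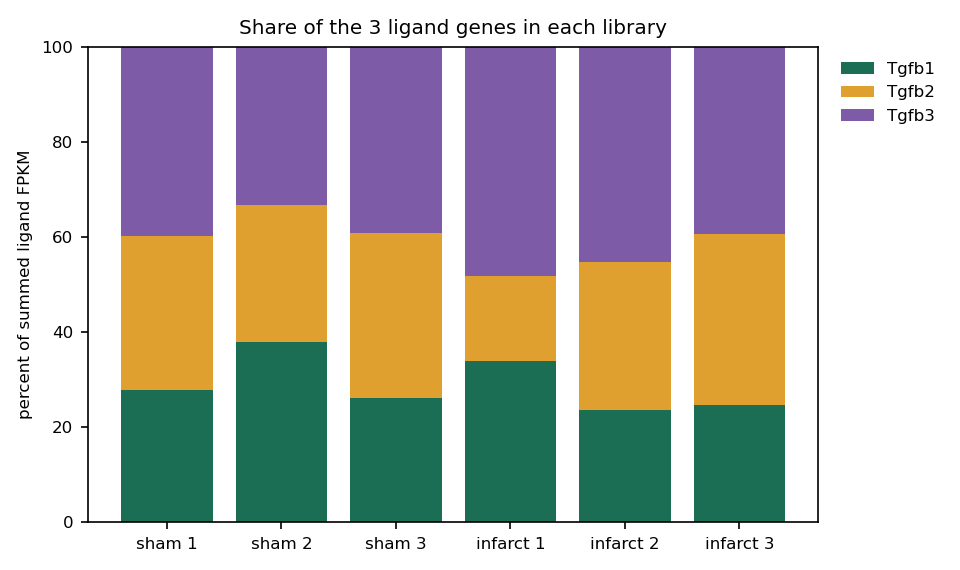
Stacked bars give Tgfb1, Tgfb2 and Tgfb3 in percent of their summed FPKM in each of the 6 libraries. Infarct library 1 stands apart with a Tgfb2 share of 17.9%, and sham library 2 is the library in which Tgfb1 leads, at 38.0%.

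Among the receptors the type II gene was the most abundant. Tgfbr2 (chromosome 9, 116084293 to 116175360, minus strand) stood at 48.1, 34.1 and 39.2 FPKM across the sham libraries and 30.7, 33.2 and 37.8 in the infarct libraries. All infarct values lay below the sham mean of 40.5, but infarct library 3 lay above sham library 2. The change was -0.24, with an interval of -0.59 to 0.10 and an unadjusted limma p of 0.142. It depended on the sham library kept: it was -0.11 without sham library 1 and -0.35 without sham library 2.

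Tgfbr1 (chromosome 4, 47353222 to 47414931, plus strand), the kinase that phosphorylates the Smads, was at 17.97, 17.1 and 13.8 FPKM across the sham libraries and 23.3, 17.2 and 16.2 in the infarct libraries. Infarct library 1 was highest, and the other 2 infarct libraries lay within the sham range. The change was 0.19 (95% interval -0.20 to 0.59), and 0.04 without infarct library 1. Tgfbr3 (chromosome 5, 107106570 to 107289629, minus strand) encodes betaglycan, which presents ligand to the type II receptor. It was the least abundant of the 10, at 11.7, 8.95 and 7.63 FPKM in the sham and 12.8, 10.2 and 8.91 in the infarct libraries. Its change was 0.16, with an interval of -0.27 to 0.60. It was 0.036 without infarct library 1, 0.037 without sham library 3 and 0.32 without sham library 1. Its gene overlaps 4 gene models in the annotation, 3 of them on the same strand.

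The ratio of Tgfbr2 to Tgfbr1, which does not depend on how a library is scaled, was 2.68, 2.00 and 2.84 in sham and 1.32, 1.94 and 2.33 in the infarct libraries. The type II gene was above the type I gene in all 6 libraries. The log2 ratio was lower by a mean of 0.45 in the infarct libraries, with overlap (exact permutation p = 0.20, adjusted p = 0.80). Infarct library 1, low in Tgfbr2 and high in Tgfbr1, held the lowest ratio, and without it the difference in log2 ratio was -0.22.

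Smad2 was the 1 gene of the 10 whose groups did not overlap. Smad2 (chromosome 18, 76241580 to 76310963, plus strand) was at 19.1, 19.1 and 20.7 FPKM across the sham libraries and 23.4, 21.8 and 21.4 in the infarct libraries. Every infarct library was above every sham library, by 3.27% at the closest pair. The means were 19.7 ± 0.920 and 22.2 ± 1.07 FPKM, a ratio of 1.13 and a log2 change of 0.17 with an interval of -0.04 to 0.38. The unadjusted p was 0.0979 and the adjusted p 1.00 by limma, which ranked Smad2 at 836 of 12720 by unadjusted p. Groups did not overlap for 7.81% of all genes tested in either direction, and for 3.71% with infarct higher. The change kept its sign in all 16 alternatives run, from 0.11 to 0.20. Smad2 varied less within groups than 94.3% of the genes tested.

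Smad3 (chromosome 9, 63646767 to 63757994, minus strand), the receptor Smad that itself binds DNA, stood at 34.0, 31.8 and 24.3 FPKM across the sham libraries and 34.995, 34.1 and 29.7 in the infarct libraries. Sham library 3 was the lowest, and the other 5 libraries ran from 29.7 to 34.995 FPKM. The change was 0.14 (95% interval -0.20 to 0.48), and without sham library 3 it was close to 0, at 0.00024. Smad3 was 1.17 to 1.78 times as abundant as Smad2 in every library, with mean ratios of 1.54 in sham and 1.48 in the infarct libraries.

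Smad7 (chromosome 18, 75367529 to 75395935, plus strand), the inhibitory Smad, was the most abundant of the 10, above 89.4% of the genes tested. It was at 56.7, 52.9 and 56.7 FPKM across the sham libraries and 35.8, 64.8 and 53.6 in the infarct libraries. The sham values lay close together, with an SD of 2.17 FPKM, while the infarct values held both the lowest and the highest of the 6, with an SD of 14.6. The change was -0.15, with an interval of -0.63 to 0.34, and turned to 0.09 without infarct library 1. Skil (chromosome 3, 31095058 to 31122577, plus strand) stood at 18.4, 22.5 and 17.8 FPKM across the sham libraries and 17.7, 23.8 and 19.4 in the infarct libraries. Library 2 was the highest of each group. The change of 0.05, with an interval of -0.29 to 0.39, was the smallest of the 10, and it turned to -0.012 without sham library 3 and to -0.068 without infarct library 2.

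**Figure D3:**
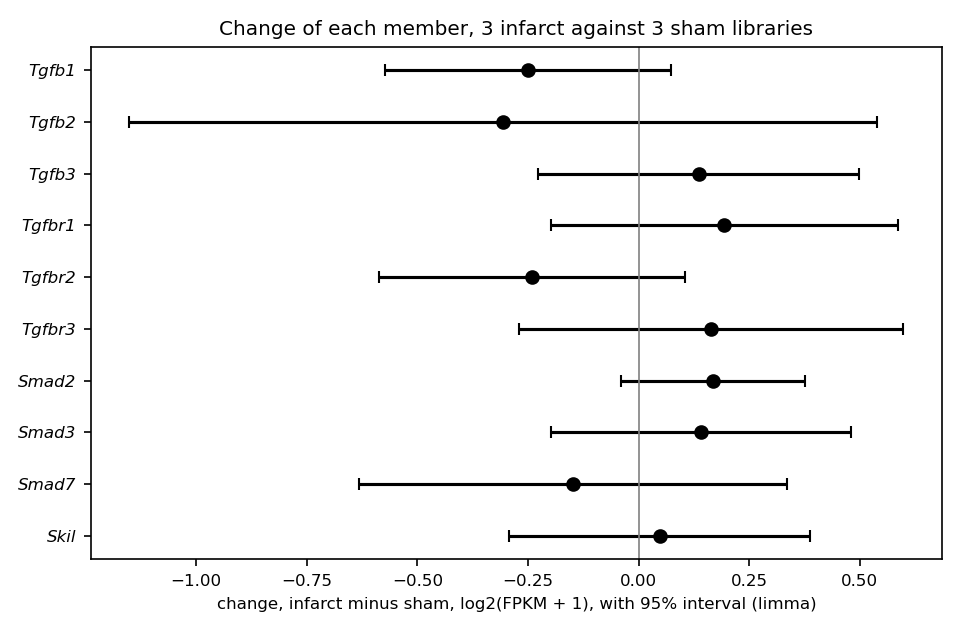
Points give the change of each of the 10 genes, infarct minus sham, on the log2(FPKM + 1) scale, and bars the 95% interval from limma over 3 against 3 libraries. Every interval crosses 0, with Smad2 the narrowest (-0.04 to 0.38) and Tgfb2 the widest (-1.15 to 0.54).

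Ordered by mean FPKM over the 6 libraries, the genes ran Smad7 (53.4), Tgfbr2 (37.2), Smad3 (31.5), Tgfb3 (28.7), Tgfb2 (21.8), Smad2 (20.9), Tgfb1 (20.4), Skil (19.9), Tgfbr1 (17.6) and Tgfbr3 (10.03). The ranges of neighbours over all libraries overlapped in each step but the last: the highest Tgfbr3 value, 12.8 FPKM, lay below the lowest Tgfbr1 value, 13.8. Within each library, though, Smad7 lay above Tgfbr2 and Tgfb3 above Tgfb2. Tgfb2, Smad2, Tgfb1 and Skil differed in mean by less than 2 FPKM and cannot be ordered.

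Infarct library 1 was the lowest of the 6 libraries for 4 of the 10 genes (Tgfb2, Tgfbr2, Smad7 and Skil) and the highest for another 4 (Tgfbr1, Tgfbr3, Smad2 and Smad3). Over all genes tested it was lowest for 21.2% and highest for 26.1%. It also held the highest summed proliferation markers, at 374.8 FPKM, and the highest Y-linked values, and their part in these levels was not tested. Sham library 2, the other library high in proliferation markers, was the lowest sham library for Tgfb2, Tgfb3, Tgfbr2, Smad2 and Smad7. It was the highest sham library for Tgfb1 and Skil, and lay between the other sham libraries for Tgfbr1, Tgfbr3 and Smad3. Skil thus went the other way from infarct library 1, whose 17.7 FPKM lay close to the 17.8 of sham library 3. For Smad2 sham libraries 1 and 2 were nearly equal, at 19.14 and 19.12 FPKM, so no direction is read. Without sham library 2 and infarct library 1 the changes were 0.05 for Smad7, -0.16 for Tgfb1, -0.29 for Tgfbr2, -0.007 for Tgfb2 and 0.24 for Skil. Those of Tgfb3, Tgfbr1, Tgfbr3, Smad2 and Smad3 lay between 0.012 and 0.14.

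**Figure D4:**
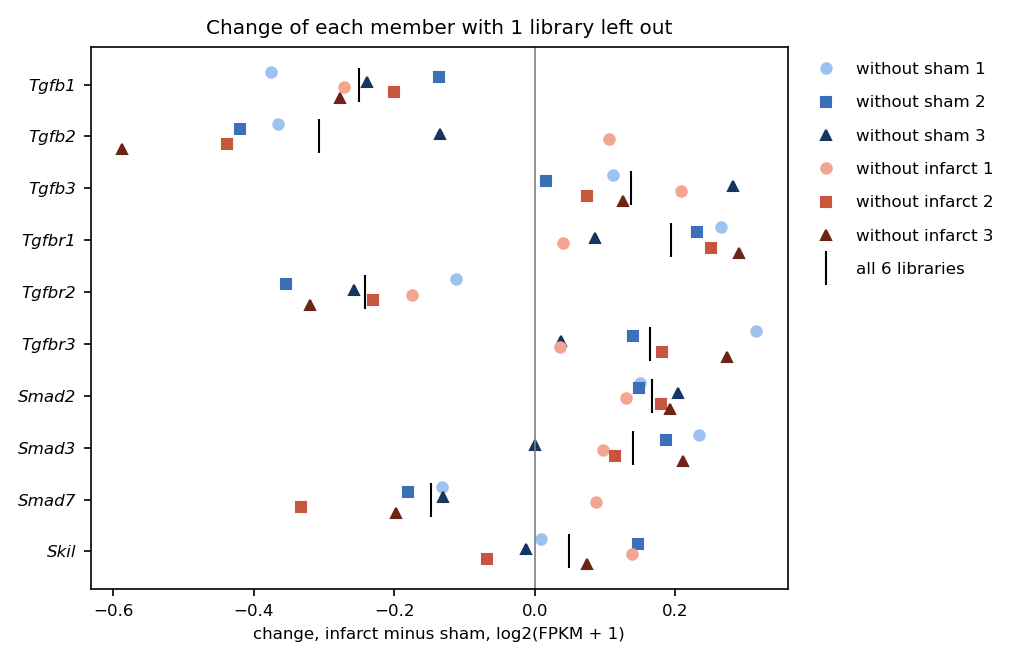
Each mark is the change of a gene, infarct minus sham on the log2(FPKM + 1) scale, with 1 library left out, and the black bar is the change with all 6. Tgfb2 and Smad7 cross 0 only without infarct library 1, to 0.11 and 0.09, while Smad2 stays between 0.13 and 0.20.

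Of the other genes of the pathway, 74 of 84 listed were tested, and 0 passed in either direction by limma. Dab2 alone had an unadjusted p under 0.05. Their median change was 0.00, and 5.41% of them did not overlap between groups, beside 7.81% of all genes tested. In the group of latency and activation genes, 18 of 20 were tested, 11 with a positive and 7 with a negative change (median 0.02). Itgb1, a subunit of TGF-beta activating integrins, was at 455 ± 30.8 FPKM in the sham and 448 ± 61.5 in the infarct libraries. Thbs1, the gene of thrombospondin 1, which activates latent TGF-beta, was at 637, 710 and 854 FPKM in the sham and 590, 1004 and 955 in the infarct libraries, again lowest in infarct library 1. Fbn1, the gene of the microfibril protein to which latent complexes bind, was at 231 ± 53.3 and 265 ± 60.2. The integrin gene Itgb3 was at 9.21 ± 2.05 and 6.82 ± 2.16 FPKM. The smallest unadjusted p of the group, 0.0728, was that of the plasminogen activator gene Plat, at 37.2 ± 4.14 and 46.4 ± 7.79 FPKM.

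Of 14 co-receptor and related receptor genes 10 were tested, 9 with a negative change (median -0.12). Eng, the gene of the co-receptor endoglin that endothelial cells express strongly, was at 92.7, 108.7 and 127.7 FPKM across the sham libraries and 70.2, 102.8 and 96.0 in the infarct libraries, with overlap. Endothelial markers were lower in the same 3 infarct libraries, and their part in the level of Eng was not tested. Acvrl1, the gene of the endothelial type I receptor ALK1, was at 43.4 ± 9.06 and 39.7 ± 11.1 FPKM, and Acvr1, a type I receptor gene of the BMP branch, at 28.3 ± 2.08 and 24.5 ± 1.96. Acvr1b, a type I receptor gene of the activin branch, was at 6.26, 6.26 and 6.06 FPKM across the sham libraries and 4.65, 5.41 and 5.50 in the infarct libraries, without overlap (unadjusted p = 0.0736, adjusted p = 1.00 by limma). Acvr2a, the type II receptor gene of the same branch, also did not overlap, at 3.69 ± 0.266 and 4.18 ± 0.179 FPKM, with infarct higher. It was singled out after its values were seen.

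All 20 genes of Smad partners and inhibitors were tested, 7 with a positive and 13 with a negative change (median -0.04). Dab2, the gene of an endocytic adaptor that links TGF-beta receptors to Smads, was at 54.2, 43.3 and 41.1 FPKM across the sham libraries and 32.8, 35.3 and 38.5 in the infarct libraries, without overlap. Its change was -0.36 with an SE of 0.128, an unadjusted p of 0.0255 and an adjusted p of 1.00 by limma. Fkbp1a, which encodes the protein FKBP12 that keeps the type I receptor inactive, was at 188, 281 and 218 FPKM across the sham libraries and 180, 176 and 187 in the infarct libraries, without overlap (unadjusted p = 0.0704). Smurf2 and Nedd4l, which encode ubiquitin ligases that act on the receptors and Smads, were at 58.9 ± 2.42 and 86.4 ± 29.7 FPKM in the sham libraries and at 54.1 ± 8.56 and 90.1 ± 16.35 in the infarct ones. The shared partner Smad4, singled out for its role, was at 23.3 ± 1.08 and 22.9 ± 1.04 FPKM, a change of -0.03 with an interval of -0.23 to 0.18. Smad6, the other inhibitory Smad and likewise singled out, was at 31.7, 32.6 and 43.6 FPKM across the sham libraries and 19.4, 39.2 and 37.9 in the infarct libraries, lowest in infarct library 1 as Smad7 was.

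Of 30 target genes 26 were tested, 18 with a positive and 8 with a negative change (median 0.10). Fn1, the fibronectin gene, has the status of too many fragments in the table and was left out. Ctgf, the connective tissue growth factor gene, was added after its values were seen, at 884, 634 and 835 FPKM in the sham and 458, 917 and 909 in the infarct libraries. It was lowest in infarct library 1 and highest in infarct library 2. The collagen genes Col1a1 and Col1a2 had changes of 0.30 and 0.29, with intervals of -0.10 to 0.69 and -0.11 to 0.69. The crosslinking enzyme gene Loxl2 was at 65.0 ± 15.4 and 90.0 ± 25.9 FPKM. Cnn1, the gene of the contractile protein calponin 1, had the smallest unadjusted p of the group, 0.0559, at 5.31 ± 2.995 and 10.5 ± 4.65 FPKM. The other genes named by rule, Bmp1, Plau, Cd109, Nrp1, Smad5, Ppm1a and Col3a1, had overlapping groups and changes from -0.24 for Cd109 to 0.19 for Bmp1. Infarct library 1 was the lowest library for 7 of the 26 target genes and sham library 2 for 10, the 2 libraries with the highest proliferation markers. That is 26.9% and 38.5% of the target genes, beside 21.2% and 22.1% of all genes tested. Infarct libraries 2 and 3 were the highest for 9 and 8 of the 26, or 34.6% and 30.8%, beside 17.0% and 10.4% of all genes tested. The endothelially expressed growth factor gene Pdgfb did not reach the filter and was singled out after its values were seen, at 0.815, 1.25 and 2.56 FPKM in sham and 0.115, 0.0168 and 0.105 in the infarct libraries.

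**Figure D5:**
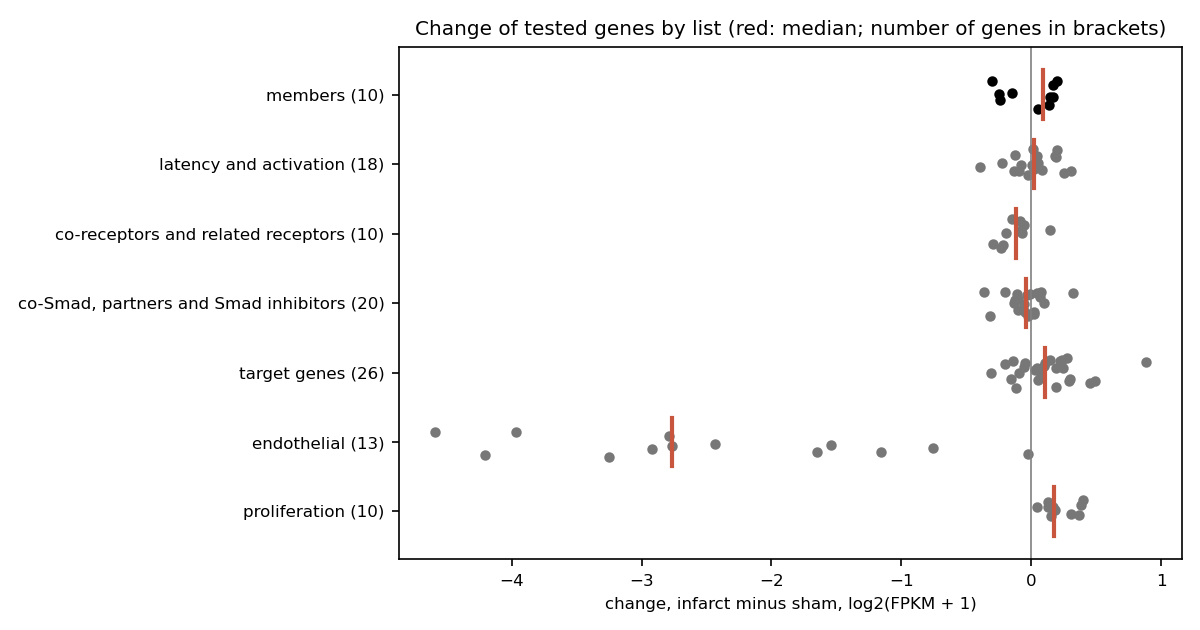
Each point is the change of a tested gene, infarct minus sham on the log2(FPKM + 1) scale, by list, with the median in red and the number of tested genes in brackets. The TGF-beta genes and the 4 other pathway lists have medians between -0.12 and 0.10, while the endothelial markers have a median of -2.76.

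The genes most alike to each ligand over the 6 libraries were looked up among 8724 genes with a mean of at least 5 FPKM, as a description. With 6 libraries and that many genes, high values are found for any gene. For Tgfb1 they were Elf1, a transcription factor gene (Pearson likeness 0.98 on the log2 scale), and Dennd5b (0.97). For Tgfb2 they were Bnip2 and Nucb2 (0.99 each), both lowest in infarct library 1, at 79.0 and 28.4 FPKM. For Tgfb3 they were Kctd20 and Kif3b (0.99 each).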

How the data were processed

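The authors deposited FPKM values for each library and, per the file headers, their own group FPKM, p-values and q-values. The submitters' processing notes list, with no roles, Cuffdiff, Cufflinks, HISAT2, SAMtools, StringTie and Trimmomatic 0.36 beside build GRCm38. For the gene annotation no version was given in the sources used here. Sham columns could be matched to samples by number. Infarct columns could be matched to their group but not to single samples, and the infarct library numbers printed here are the column numbers.

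From the FPKM values, 14 genes listed with too many fragments were left out and entries of 1 symbol were summed (110 symbols). A gene was tested if 3 or more of the 6 libraries reached 1 FPKM. Values of log2(FPKM + 1) went into limma 3.58.1 (R 4.3.3, trend on intensity), two-sided, with Benjamini-Hochberg adjustment and a threshold of 0.05. The changes understate those of genes with low values. Shares and ratios were compared by exact permutation tests in Python 3.11.15 with scipy 1.17.1. Depth was read from the steps of low values in genes with 1 transcript of 2 to 12 kb. Gene coordinates are from GENCODE M21, which held 99.6% of the identifiers. They differ from the deposited loci for Tgfb3, for Tgfb2 (deposited end 186707033) and for Smad2 (deposited end 76305731). Tgfb2 also overlaps 2 gene models on the other strand in that annotation.

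The 10 genes, the lists and the tests were chosen with earlier results of these data known. From each other pathway list the text names, by rule, genes past the threshold and those among the 4 smallest unadjusted p or the 3 most abundant. From the marker lists it describes, it names the 3 most abundant and those at 0, and any others are said to be singled out. One gene that the rule names is not reported here. Sequences are reference promoters from RefSeq.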

Additional observations from a re-analysis of the deposited data

How the results depend on the processing

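None of the 10 genes passed the threshold of 0.05 in any of the 16 alternatives run for each. These changed the pseudocount, filter, scaling, trend or libraries kept in limma, or took the authors' deposited values and q-values. Of these 160 values, 155 kept the direction. The 5 that turned were Tgfb2 without infarct library 1 (0.11), Smad7 without infarct library 1 (0.087) and without sham library 2 and infarct library 1 together (0.055), and Skil without sham library 3 (-0.012) and without infarct library 2 (-0.068). With 1 library left out, Tgfb2 ran from -0.59 to 0.11, Smad7 from -0.33 to 0.087 and Skil from -0.068 to 0.15. The cause was not tested. The joint omission of 2 libraries was chosen after seeing the data.

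Over all genes limma called 3. It called 1 without a filter, 0 without short, ribosomal and mitochondrial RNA and 0 without sham library 2 and infarct library 1 together, where 455 and 638 genes had an unadjusted p under 0.05 under the last 2. With 1 library left out it called 1 to 14, the 14 without sham library 1. No other scaling moved the median of all genes by more than 0.1 on the log2 scale.

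With 1 library left out, the difference in the share of Tgfb1 among the ligands ran from -6.50 to 0.37 percentage points and that of Tgfb2 from -7.40 to 1.61. The difference in the log2 ratio of Smad3 to Smad2 ran from -0.21 to 0.085. The differences in the other 5 shares and ratios kept their direction. No paired analysis was possible because the infarct columns carry numbers that do not match those of the infarct samples. The labels also name no pairs of sham and infarct hearts, so no paired design is known. With 3 libraries a group, any change inside the intervals given remains compatible with these values, so a gene that did not pass is not shown to be unchanged. Counting error is small beside the spread between libraries.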
